A study of Mus musculus with 18 samples.

Results

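The 235 spots described here are the immunoglobulin-rich places of 4 frozen sections of mouse urinary bladder, out of 4415 spots that held 500 or more unique molecular identifiers (UMIs, each a tag for 1 captured RNA molecule). A spot was called rich when Igkc, the constant region of the kappa light chain of antibodies, gave 0.1% or more of its UMIs. It was called low under 0.02%, which held for 3504 spots, and the 676 spots between were kept out of both classes. The sections belong to an atlas of the bladder that also holds dissociated cells, nuclei and bulk RNA, none of which is used below. All sections came from C57BL/6 males without a named transgene or treatment, 2 of them at 22 months and 2 at 14 months, and the label of each gives its sex and number as "4X Male". Whether tissue of several animals lay in a section, or the 4 sections came from separate animals, is not stated. The p-values of genes below therefore cannot be read as a spread between animals, and any spread between sections may be technical. These p-values rest on few sums and on a variance that the test shares across genes. A very small p thus does not measure the spread between these sections. RNA was captured by Visium, in which tissue lies on a grid of barcoded spots. A spot is a small area that can hold several cells of different types, and the positions of the spots were not used.

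Antibodies are made by B lymphocytes, which carry them as a receptor on the surface together with the signalling chains Cd79a and Cd79b, and by plasma cells, which secrete them in bulk. Each of these cells uses either kappa or lambda light chains and a heavy chain class: mu (Ighm) comes first, and a cell can later switch to a gamma (Ighg), alpha (Igha) or epsilon (Ighe) class. Jchain joins IgM and IgA into polymers, and Mzb1 is a chaperone of the endoplasmic reticulum in which they are assembled. Where B and T cells settle together in tissue, the chemokines Cxcl13 and Ccl19 and the cytokine lymphotoxin beta (Ltb) are known to organise them, and lymphoid aggregates of this kind are described in the bladders of ageing mice.

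The members were spread unevenly over the sections. In the 22-month section 1, 38 of 1317 spots were rich (2.89%, exact 95% binomial interval 2.05 to 3.94%), and in the 22-month section 2 188 of 1038 were (18.1%, 15.8 to 20.6%). The 14-month section 1 held 0 of 937, for which the exact interval ends at 0.393% and a count of 0 allows a share of up to 0.320% by the rule of 3 counts, and the 14-month section 2 held 9 of 1123 (0.801%, 0.367 to 1.52%). These intervals cover counting error only. The 22-month sections were both above the 14-month ones, with mean shares of 10.5% against 0.401%. With 2 sections against 2 the exact two-sided permutation test over sections cannot go below the p of 0.333 that it gave.

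**Figure D1:**
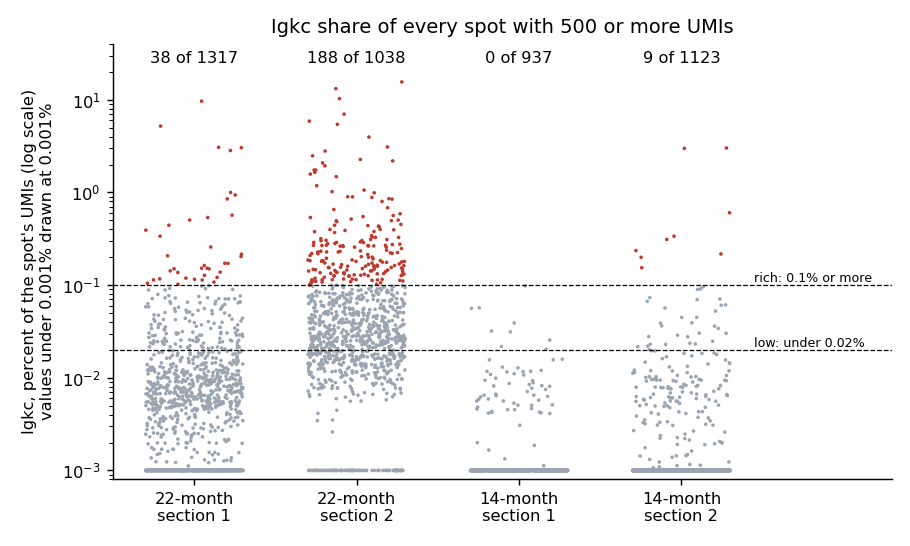
Igkc as a percentage of each spot's UMIs (log scale, with values under 0.001% drawn at 0.001%) for every spot of 500 or more UMIs in the 4 sections. Red points are the 38, 188, 0 and 9 rich spots, and dashed lines mark the 0.1% and 0.02% limits.

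Igkc is what chose the spots, so its values describe the rule and carry no test. Among members the median Igkc share was 0.172% in the 22-month section 1, 0.219% in the 22-month section 2 and 0.311% in the 14-month section 2. The highest reached 9.67%, 15.6% and 3.02%. In those 3 sections the members just inside the limit stood at 0.1021%, 0.1003% and 0.154%, and the spots just outside at 0.0984%, 0.0996% and 0.0958%. The 14-month section 1 had 1 spot just outside, at 0.0982%, with 28 Igkc and 39 Ighm UMIs. Members took 71.8%, 82.1% and 75.7% of all Igkc UMIs of their sections. Depth was similar in both classes: the median was 16189 UMIs in rich and 15829 in low spots of the 22-month section 1, 17207 and 17015 in the 22-month section 2, and 12732 and 14166 in the 14-month section 2. The classes differed at the deep end, where 24.8%, 26.0% and 17.5% of low spots but 10.5%, 13.8% and 0% of rich spots passed 30000 UMIs. In the 22-month section 2, 8 members had under 2000 UMIs and 6 rested on fewer than 3 Igkc UMIs. Sections shared between 247 and 533 barcodes pairwise, as grids with the same barcode set do, but no rich barcode was rich in a second section.

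Of the other markers of the label, Jchain was found in most members, and Mzb1 and Cd79a in fewer. Levels are given below as UMIs per 1000000 UMIs other than Igkc (CPM), from counts summed over all rich or all low spots of a section. Jchain stood at 459.6, 560.5 and 651 CPM in the rich spots of the 22-month section 1, the 22-month section 2 and the 14-month section 2, against 3.98, 15.7 and 1.16 CPM in their low spots. At least 1 Jchain UMI was found in 24 of 38, 156 of 188 and 7 of 9 members, and in 8.37%, 25.7% and 2.22% of low spots. With spots thinned to 2000 UMIs, which leaves out 8 members and 45 low spots of the 22-month section 2 and 1 and 2 low spots of the other 2 sections, the shares were 31.6%, 38.9% and 33.3% of members against 0.705%, 4.15% and 0.185% of low spots. Mzb1 had a UMI in 36.8%, 58.5% and 44.4% of members, and in 0%, 23.9% and 22.2% after thinning. Cd79a was rarer, with a UMI in 6 of 38, 53 of 188 and 1 of 9 members, and in 5.26%, 10.0% and 0% after thinning. In the 14-month section 1 low spots held 0.688 CPM of Jchain, 0.413 CPM of Mzb1 and 0.275 CPM of Cd79a.

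The heavy chain of the members was mainly mu in every section that had any. Ighm stood at 7597, 9192 and 10597 CPM in rich spots against 63.8, 226 and 23.2 CPM in low spots, and made up 78.9%, 83.0% and 85.1% of heavy chain UMIs in the rich spots. The switched classes differed from section to section. Igha gave 12.2% of heavy chain UMIs (813 UMIs, 1179 CPM) in the 22-month section 1, but 22 UMIs in all rich spots of the 22-month section 2 and 0 in those of the 14-month section 2. Of the 813, single spots gave 427, 166 and 143. The low spots of the 14-month section 2 held 65 Igha UMIs, 10.4% of their heavy chain UMIs. Ighg2c gave 2875 UMIs (7.56%) in the 22-month section 2 against 1 in the 22-month section 1 and 0 in the 14-month section 2. Ighg1 was found in both 22-month sections (164 and 1882 UMIs) and in neither 14-month section. Ighg2b was present in all 3, at 6.28%, 4.24% and 14.9% of heavy chain UMIs. Ighd, the delta chain of naive B cells, gave 1, 25 and 0 UMIs. Chains other than Igkc are made by the same kinds of cells that the choice of spots favours. They stayed in the fits below and in their counts of calls, but no p is read from them. Variable segment genes gave 6, 64 and 0 UMIs, too few to describe the antigen-binding parts.

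Jchain kept pace with the heavy chains: its UMIs came to 4.77%, 5.06% and 5.23% of the heavy chain UMIs in the rich spots of the 3 sections and to 4.84%, 5.14% and 4.15% in their low spots. The ratio in rich spots thus lay close to that in low spots, although the heavy chain level differed by far. Heavy and light chains together made up 1.78%, 1.97% and 2.17% of all UMIs of the rich spots and 0.0125%, 0.0487% and 0.00365% of those of the low spots.

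Single members carried different classes. Of members with 10 or more heavy chain UMIs, mu led in 27 of 32 in the 22-month section 1, in 166 of 175 in the 22-month section 2 and in all 8 in the 14-month section 2. Alpha led in 3 spots of the 22-month section 1 and gamma 1 in 9 spots of the 22-month section 2. The member with most alpha UMIs held 427 Igha beside 322 Ighm and 460 Igkc UMIs among 8854 UMIs. Another of the same section held 143 Igha and 1 Ighm UMI. The spot with most Igkc, in the 22-month section 2, held 3135 Igkc, 3625 Ighm, 577 Ighg2c, 796 Iglc1 and 202 Jchain UMIs among 23780. It had 21 UMIs over the 14 genes of the B cell list. In the 14-month section 2 the leading spot held 424 Igkc, 403 Ighm, 31 Jchain and 17 Prg2 UMIs, and 4 of the B cell list. In each of these spots the antibody chains outnumbered the B cell list by far.

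A smaller set of members of the 22-month section 2 looked different. In 20 of its 188 members the lambda chains (Iglc1, Iglc2 and Iglc3) outnumbered Igkc, which happened in 0 of 38 and 0 of 9 members of the other 2 sections. Those 20 spots held 1164 kappa UMIs and 2475 lambda UMIs, 2314 of the latter from Iglc3. Gamma 1 made up 47.1% and mu 38.3% of their heavy chain UMIs, against 1.07% and 87.1% in the other 168 members. In these 20 spots the B cell list summed to 2014 CPM against 142 CPM in the other 168. Cd79a stood at 405 against 33.3 CPM, Ms4a1 (CD20) at 208 against 12.5 and the division marker Mki67 at 146 against 7.59. Cxcl13 stood at 151 against 12.5 CPM and Ltb at 217 against 28.0. Jchain was close in both, at 645 against 549 CPM. Acta2, the actin of smooth muscle, was at 509 against 6426 CPM. These spots were singled out after their values were seen, so the contrast is a description with no test.

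Counted the other way, 31 members of the 22-month section 2 had 10 or more UMIs of the B cell list, and 18 of them were among the 20 spots rich in lambda. In the 22-month section 1, 1 member reached 10 such UMIs, and in the 14-month section 2 none did. The leading spot by the B cell list held 158 of its UMIs, with 624 Ighg1, 715 Iglc3, 38 Cd79a, 10 Ltb, 10 Cxcl13 and 15 Mki67 UMIs. By contrast, 22 of 38, 81 of 188 and 6 of 9 members held no UMI of the B cell list at all. The 235 members are therefore not alike: mu leads in most, and UMIs of the B cell list range from 0 to 158 per spot. At least 3 such UMIs were held by 7 members of the 22-month section 1, 55 of the 22-month section 2 and 2 of the 14-month section 2. No cell type was assigned to either, since a spot can hold several cells.

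**Figure D2:**
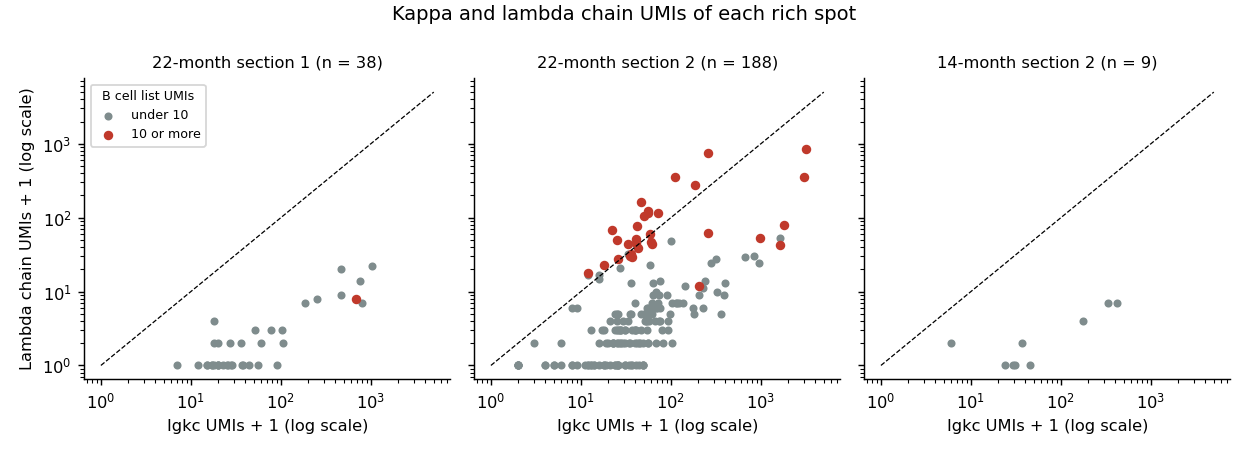
Igkc (x) and summed lambda chain UMIs (y) of each rich spot, both plus 1 on log scales, with spots of 10 or more B cell list UMIs in red and the line of equality dashed. All points of the 22-month section 1 and the 14-month section 2 lie below the line, while 20 of 188 of the 22-month section 2 lie above it.

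The genes that go with Igkc were sought by comparing summed counts of rich and low spots within sections. The 14-month section 1 has no rich sum, so the change rests on 3 sections, and edgeR's quasi-likelihood test was fitted to 7 sums with the section as a block. Of 13629 genes tested, 2195 differed (16.1%), 1263 of them higher in rich spots (9.27%) and 932 lower (6.84%), at a Benjamini-Hochberg adjusted p under 0.05. The count fell to 122 (1%), 94 higher (0.77% of 12206) and 28 lower (0.229%) when both classes were held to spots of 5000 to 30000 UMIs. This leaves 184 rich and 2631 low spots and is called the depth-limited comparison below. It cuts the extremes and does not match depth: the medians were 14665 UMIs in rich against 13367 in low spots, 17114 against 15515 and 12821 against 12942.5 in the 3 sections. Without a test, 2563 of 13621 genes (18.8%) stood higher in rich than in low spots of all 3 sections. Of 2084 genes called over all spots and tested in this range, 1640 kept their direction. The 94 genes called in both, which share most of their spots, all did. Values with both are therefore given for each group, and a log2 fold change is rich against low with its standard error (SE). Genes nearly absent from low spots, such as Prg2 and Ccl19 below, pass the low-count filter only through their rich sums. For them, being tested already favours a rise. Here, as in any bulk measurement, more cells of a type and more RNA per cell cannot be told apart.

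Plasma cell genes were higher in rich spots, which were themselves chosen by an antibody gene. The choice favours the very cells that make Mzb1, Jchain, Cd79a and the other plasma and B cell markers. Their direction was thus largely set in advance, and their p-values here and below describe the fit and are no support. Of the 12 genes of that list 11 were tested and 7 rose, with a median log2 fold change of 1.34 against 0.00 over all genes tested. Mzb1 stood at 56.5, 167 and 50.7 CPM in rich and 0.484, 4.82 and 0.356 CPM in low spots. The log2 fold change of Mzb1 was 5.74 (SE 0.23, adjusted p = 1.99e-125). Derl3, which helps to clear misfolded protein from the endoplasmic reticulum, rose by 3.97 (SE 0.44, adjusted p = 5.44e-17). Irf4, a transcription factor of plasma cell formation, rose by 2.44 (SE 0.40, adjusted p = 6.31e-08). These 3 were also called in the depth-limited comparison. Xbp1, the regulator of secretory capacity, rose by only 0.67 (SE 0.14, adjusted p = 3.08e-05), from 107, 97.1 and 126 to 157, 159 and 245 CPM, and Txndc5 by 0.69 (SE 0.13, adjusted p = 1.39e-05). Both missed the threshold when depth was limited. Jchain had the largest difference of the list, 6.57 (SE 1.09), but did not pass in edgeR (adjusted p = 0.119) and passed in DESeq2 (adjusted p = 1.32e-10). Sdc1, the plasma cell surface protein CD138 that urothelium also makes, was at 387, 317 and 456 CPM in rich and 406, 413 and 503 CPM in low spots and did not pass (adjusted p = 0.226).

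Genes of the secretory endoplasmic reticulum beyond these changed little. Of 12 such genes tested 5 rose, with a median of 0.15. Creld2, a chaperone induced under secretory load, led with 1.05 (SE 0.17, adjusted p = 1.24e-07) and was called also with limited depth. Sdf2l1 rose by 0.92 (SE 0.22, adjusted p = 4.02e-04) and was not called there.

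Among the 10 genes with the largest rises, the first was Prg2, which encodes the major basic protein best known from eosinophil granules. It gave 49, 57 and 23 UMIs in the rich spots of the 22-month section 1, the 22-month section 2 and the 14-month section 2, or 71.0, 16.6 and 194 CPM. Low spots held 16, 1 and 3 UMIs. A single spot gave 17 of the 23 UMIs in the 14-month section 2, and a single spot 18 of the 57 in the 22-month section 2. The log2 fold change of Prg2 was 8.02 (SE 0.40, adjusted p = 4.33e-84), or 8.20 with limited depth. Of other eosinophil genes, Epx gave 0 UMIs in every rich and low sum, Siglecf 0 in every rich sum and Prg3 1 UMI in the rich spots of the 22-month section 2. Ear2 stood at 8.70 and 10.5 CPM in the rich spots of the 22-month sections, against 2.28 and 2.82 CPM in low spots. In the 14-month section 2 it had 0 UMIs in rich spots and 9.29 CPM in low spots. Prg2 followed the Igkc share within the members, at 15.5, 34.4 and 362 CPM in members of the 22-month section 1 with 0.1 to 0.3%, 0.3 to 1% and 1% or more Igkc. The last of these bins hold 9 and 5 spots.

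B cell genes were higher as well, with 9 of 10 tested members of a list of 14 called (median log2 fold change 3.64). Rare genes such as Cd79a and Pou2af1 would not have passed the low-count filter without their rich sums. The share of tested genes called is therefore no support of its own, here or with limited depth. With limited depth 4 of the list were tested, and all 4 were called. Cd79a rose by 4.96 (SE 0.36, adjusted p = 8.03e-41), from 0.692, 2.35 and 0.222 CPM in low to 17.4, 77.1 and 16.9 CPM in rich spots. The 14-month value rests on 2 UMIs. Cd79b rose by 3.66 (SE 0.30, adjusted p = 3.24e-30), and Pou2af1, a B cell coactivator of immunoglobulin genes, by 5.47 (SE 0.45, adjusted p = 1.01e-30). Both were called with limited depth, as was Fcmr, the IgM receptor, at 2.35 (SE 0.49, adjusted p = 5.14e-05). The other called members leaned on the 22-month section 2. There Cd22 reached 25.9 CPM, against 1.45 CPM in the 22-month section 1 and 0 UMIs in the 9 members of the 14-month section 2. Ms4a1 gave 0, 122 and 2 UMIs in the 3 rich sums. Blk (2.47) and Spib (3.18) also rose, and Blk lost its call without the 22-month section 2 or under DESeq2. Without that section Cd22 had an adjusted p of 0.801. When the 20 spots rich in lambda were left out, Cd79a still rose by 4.25 and Cd22 by 2.28, and both were still called.

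Of 5 tested germinal centre and dividing-cell genes 4 rose, Mki67, Top2a, Mef2b and S1pr2, where 9.27% of all genes tested were called higher. Mki67 and Mef2b would not have passed the low-count filter without their rich sums. For these genes being tested already favoured a rise, so the share called is no support of its own. Mki67 stood at 23.9 CPM in the rich and 1.06 CPM in the low spots of the 22-month section 2, at 2.90 against 0.415 CPM in the 22-month section 1, and at 0 UMIs against 3.91 CPM in the 14-month section 2. Its log2 fold change was 3.41 (SE 0.44, adjusted p = 2.95e-12), and 1.29 without the 22-month section 2 (adjusted p = 0.783). With limited depth it was called at 2.40. Top2a rose by 2.70 and Mef2b by 3.09, and neither was called without that section, where Top2a turned to -7.22. Top2a gave 0 UMIs in the rich spots of both other sections, against 0.831 and 3.47 CPM in low spots. S1pr2, a receptor that holds B cells in germinal centres, rose by 0.83 (SE 0.20, adjusted p = 6.46e-04), with 20.3, 37.2 and 59.2 CPM in rich and 22.5, 16.2 and 26.4 CPM in low spots, and was at 0.19 with limited depth and 0.18 without the 22-month section 2, called in neither. Bcl6 was at 25.9 CPM in rich and 22.2 CPM in low spots of the 22-month section 2 and did not pass (adjusted p = 0.783).

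T cell genes were higher in the same spots. Of a list of 18 genes for T and NK cells 14 were tested and 13 rose, with a median log2 fold change of 1.60. Over all genes tested 9.27% were called higher. The rarer Cd8b1, Cd5, Cd2 and Cd4, all among those called, would not have passed the low-count filter without their rich sums. The share of tested genes called is therefore no support of its own. Trbc2, a constant region of the T cell receptor beta chain, stood at 33.3, 34.0 and 25.4 CPM in rich and 5.92, 8.69 and 2.80 CPM in low spots. It rose by 2.22 (SE 0.29, adjusted p = 2.85e-12). Trbc1 rose by 2.09 (SE 0.38, adjusted p = 1.90e-06), Trac by 1.83 (SE 0.43, adjusted p = 3.89e-04) and Cd3e by 1.64 (SE 0.43, adjusted p = 0.00182). With limited depth 9 of the list were tested, Trbc1 and Trbc2 were called and the median was 1.33. Summed over the list, rich spots held 120.3, 172 and 93.0 CPM against 32.6, 57.9 and 20.8 CPM. In the rich spots of the 14-month section 2 Trbc2 rests on 3 UMIs, and 12 of the 18 genes, Cd3e among them, gave 0.

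Among lymphoid chemokines the B cell attractant Cxcl13 and the T cell attractant Ccl19 were raised in every section with members. Cxcl13 stood at 27.5, 28.8 and 33.8 CPM in rich and 5.23, 2.94 and 4.05 CPM in low spots and rose by 2.87 (SE 0.32, adjusted p = 9.05e-17). Ccl19 stood at 13.0, 11.3 and 16.9 CPM against 0.761, 1.06 and 0.889 CPM and rose by 3.78 (SE 0.47, adjusted p = 2.62e-13). The 14-month sums rest on 4 and 2 UMIs. Both were called with limited depth, at 2.06 and 2.91. Ccl5, made by T and NK cells, rose by 1.27 (SE 0.17, adjusted p = 4.68e-11) and was also called there. Cxcl9, induced by interferon gamma, rose by 3.02 (SE 0.50, adjusted p = 1.44e-07), but with 0, 48 and 1 UMIs in the 3 rich sums. Cxcl12, which stromal cells make and which holds plasma cells in bone marrow, rose by 0.91 (SE 0.13, adjusted p = 8.95e-10) and by 0.40 with limited depth (adjusted p = 0.511). In all, 6 of 8 tested genes of that list of 10 rose, of which Ccl19 and Cxcl9 were tested only through their rich sums.

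Ccl21a behaved otherwise. This chemokine of lymphatic vessels and lymph node stroma stood at 147 CPM in rich and 65.4 CPM in low spots of the 22-month section 2. It was at 11.6 against 72.2 CPM in the 22-month section 1 and at 25.4 against 122 CPM in the 14-month section 2. The sections thus point in opposite directions, and the fitted difference of 0.08 (SE 1.03) did not pass.

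Ltb, the lymphotoxin subunit that B and T cells make, rose by 3.26 (SE 0.29, adjusted p = 2.35e-26), from 3.36, 5.99 and 2.18 to 36.2, 50.3 and 33.8 CPM, and by 2.79 with limited depth. The choice of spots by Igkc favours B cells, so this direction too was in part set in advance. In the 22-month section 2, 88 of 173 Ltb UMIs of rich spots lay in the 20 spots rich in lambda. Ltb was the only called gene among 4 tested of the list for lymphoid tissue organisation and B cell survival. Its rich sum of the 14-month section 2 rests on 4 UMIs. Of the chemokine receptors Cxcr4, Cxcr3 and Ccr2 rose by 1.91, 2.16 and 1.84 (adjusted p = 8.67e-05, 1.80e-05 and 1.10e-07), and with limited depth they stood at 1.69, 1.67 and 1.32, called in none of the 3 (adjusted p = 0.123, 0.156 and 0.0506). Cxcr5, the receptor for Cxcl13, was too rare to be tested and gave 19 UMIs in the rich spots of the 22-month section 2 and 0 in those of both other sections. Pigr, which carries polymeric IgA and IgM across epithelia, gave 0, 12 and 0 UMIs in rich spots and did not pass (adjusted p = 0.116).

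Antigen presentation by class II molecules was raised as a group. All 7 genes of the list were tested and called, with a median of 1.43, and 6 of the 7 were called with limited depth, with a median of 0.80. Cd74, the invariant chain, stood at 1583, 1607 and 685 CPM in rich and 427, 519 and 429.6 CPM in low spots and rose by 1.43 (SE 0.14, adjusted p = 4.10e-20). H2-Ab1 rose by 1.51 (SE 0.14, adjusted p = 1.54e-24), H2-Aa by 1.40, H2-Eb1 by 1.34 and H2-DMa by 1.54. Ciita, the coactivator that switches on class II genes, rose by 2.23 (SE 0.36, adjusted p = 3.80e-08). H2-DMb1 rose by 1.25, although it gave 0 UMIs in the rich spots of the 14-month section 2 against 21.7 CPM in low spots, and was not called with limited depth (adjusted p = 0.285). H2-DMb2, its neighbour, rose by 2.83 (SE 0.33, adjusted p = 1.67e-15), from 2.70, 4.70 and 3.02 to 15.9, 41.0 and 8.45 CPM. The last value rests on 1 UMI. Class II genes are made by B cells, dendritic cells and macrophages alike, so the group does not point to a cell type. As the choice of spots favours B cells, its direction was in part set in advance. The 14-month section 2 had the smallest difference, with the list at 1944 against 1183 CPM where the 22-month sections held 4363 against 1176 and 4425 against 1566 CPM.

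Since these genes moved together, their promoters are shown. Class II promoters are known for conserved boxes, of which the Y box is an inverted CCAAT, so ATTGG on the gene's strand. For 5 of the 8 genes just named a window was taken from the RefSeq table (build GRCm38.p6). None was taken for H2-Ab1, Cd74 and Ciita, which does not mean that the table lacks them. Each window runs from 120 to 21 bases before the start of the gene, 5′ to 3′ on its strand, with ATTGG or CCAAT in capitals.
H2-Aa: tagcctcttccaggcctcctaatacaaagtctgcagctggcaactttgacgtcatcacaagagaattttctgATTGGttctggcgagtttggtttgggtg
H2-Eb1: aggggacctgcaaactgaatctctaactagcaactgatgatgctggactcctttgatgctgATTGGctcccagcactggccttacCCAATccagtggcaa
H2-DMb1: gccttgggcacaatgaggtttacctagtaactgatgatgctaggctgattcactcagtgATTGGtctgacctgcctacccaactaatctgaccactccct
H2-DMb2: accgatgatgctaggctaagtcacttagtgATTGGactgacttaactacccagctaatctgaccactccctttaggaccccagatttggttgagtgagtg
H2-DMa: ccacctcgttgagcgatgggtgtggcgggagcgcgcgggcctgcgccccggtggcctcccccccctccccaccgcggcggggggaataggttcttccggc

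The windows lie at chr17:34287844-34287943 on the minus strand for H2-Aa and on the plus strand at chr17:34305747-34305846 for H2-Eb1, chr17:34153071-34153170 for H2-DMb1, chr17:34145129-34145228 for H2-DMb2 and chr17:34122712-34122811 for H2-DMa. ATTGG begins 48, 59, 61 and 90 bases before the start in H2-Aa, H2-Eb1, H2-DMb1 and H2-DMb2, and H2-DMa holds neither form in this window. Among 32851 promoter windows of the same length 10.6% hold ATTGG and 19.2% hold ATTGG or CCAAT. A match is a string of letters and shows no binding.

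Macrophage and interferon genes differed by less, and none passed at limited depth. There only 0.77% of all genes tested were called higher, so a count of 0 for a list, here or below, says little about that list. Of 10 macrophage genes 8 rose, with a median of 0.85, and 0 of 10 were called with limited depth (median 0.15). C1qa rose by 0.84 (SE 0.13, adjusted p = 1.79e-08), Csf1r by 1.03 (SE 0.14, adjusted p = 1.34e-10) and Lyz2 by 0.93 (SE 0.14, adjusted p = 1.10e-09), and these 3 stood at 0.02, 0.27 and 0.23 with limited depth. Of 10 interferon response genes 5 rose, led in level by Ifi27l2a at 0.63 (SE 0.13), and 0 were called with limited depth. Gbp2 rose by 0.89 (SE 0.16). Of the dendritic cell list Itgax (1.59) and Cd209a (1.23) rose, and 0 of 4 tested were called with limited depth. The neutrophil genes S100a8 and S100a9 were called at 2.74 and 2.41, yet stood at 68.1 and 71.0 CPM in the rich spots of the 22-month section 1 and at 3.20 and 1.75 CPM in those of the 22-month section 2, with 0 UMIs in the 14-month section 2. Without the 22-month section 1, S100a8 was at 1.39 and S100a9 at 0.12, and neither was called. With limited depth S100a9 was called at 2.85. Napsa, an aspartic protease, rose by 2.36 (SE 0.26, adjusted p = 6.71e-17), from 6.57, 7.63 and 8.27 to 42.0, 36.1 and 33.8 CPM. The last value rests on 4 UMIs, and Napsa was also called with limited depth. Cytl1, a small secreted protein, rose by 2.31 (SE 0.28, adjusted p = 8.90e-14), with 68.1 CPM in the rich spots of the 22-month section 1 and 13.1 and 16.9 CPM in the other 2, and was not called there.

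The connective tissue genes that went with Igkc were modest. Of 10 fibroblast genes 8 rose (median 0.55). Pi16, which marks adventitial fibroblasts, rose by 0.80 (SE 0.13, adjusted p = 2.15e-07), Dcn by 0.55 and Col1a1 by 0.56, and with limited depth these were at 0.02, -0.09 and 0.35 with 0 of 10 genes called higher and Dpt called lower. Blood vessel genes held up better. Of 8 endothelial genes 7 rose (median 0.94). Egfl7 rose by 1.27 (SE 0.14, adjusted p = 1.79e-17), Plvap by 1.19 (SE 0.15, adjusted p = 1.14e-12) and Pecam1 by 1.15 (SE 0.15, adjusted p = 2.95e-11). With limited depth Egfl7 and Plvap were still called, at 0.89 and 0.78, and Pecam1 was not. Egfl7 stood at 223, 106 and 161 CPM in rich and 75.1, 54.6 and 55.0 CPM in low spots. Of 6 pericyte genes 4 rose and 1 fell. The receptor Notch3 rose by 0.62 and was called with limited depth, while Rgs5 was called lower at -0.67 and stood at 0.13 with limited depth. Of the erythroid list Hba-a2 and Hbb-bt (0.92) rose among 5 genes. Hba-a2 stood at 242, 257 and 566 CPM in rich and 94.4, 181 and 106 CPM in low spots, a difference of 1.23 that was not called with limited depth.

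Smooth muscle genes differed in direction between sections. Of 10 contractile genes 1 (Synm, 0.39) was called, Acta2 was at 0.16 and Myh11 at 0.16, and neither of the latter passed (adjusted p = 0.543 and 0.521). The list summed to 20188, 30866 and 16225 CPM in rich and 20959, 18385 and 17397 CPM in low spots, so that it was lower in rich spots of 2 sections and higher in those of the 22-month section 2. With limited depth Acta2 was at -0.69, Myh11 at -0.70 and Synm at -0.42, and Actg2 and Smtn of the list were called lower. Urothelial genes moved the other way: 6 of 10 fell (median -0.54), among them Krt20 (-1.14), Upk1b (-0.88) and Upk2 (-0.66), and with limited depth 0 of 10 were called and the median was 0.22. The low spots over 30000 UMIs, which the depth limit removes, were given above, and their part in these differences was not tested beyond that comparison. The 10 genes with the largest falls were Slc16a12 (-1.69), Atp10b (-1.56), Adtrp (-1.54), Sptlc3 (-1.48), Cspg5 (-1.43), Esyt3 (-1.41), Sqle (-1.40), Prepl (-1.37), Ovol1 (-1.35) and Fabp4 (-1.35). None of the 10 was called with limited depth. Only 0.229% of all genes tested were called lower there, so this count of 0 and that of the urothelial list say little. With spots of 10 or more against at most 1 Igkc UMI, Slc16a12, Atp10b, Adtrp, Sptlc3, Cspg5 and Sqle turned to a rise. That rule compares classes of unlike depth, as given at the end. Fabp4, a fatty acid binding protein, was the most abundant of the 10, at 623, 984 and 287 CPM in rich and 1573, 2535 and 656 CPM in low spots. The adipocyte list was at or under 0.582 CPM in every sum and was not tested.

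Across bands of the Igkc share the levels rose unevenly. In the 22-month section 2, with 126, 40 and 22 spots at 0.1 to 0.3%, 0.3 to 1% and 1% or more, Jchain went from 155 through 557 to 2852 CPM. The B cell list went from 260.1 to 673 and then 354 CPM, and the class II list from 3801 to 5908 and 5167 CPM, so both were highest in the middle band. Most of the B cell list UMIs of that band sat in a few spots with more lambda than kappa, which held 67, 66, 131 and 158. No other spot of that band held more than 32. Cxcl13 of the same section stood at 18.5, 55.6 and 37.1 CPM. In its spots under 0.02%, Jchain, the B cell list, the class II list and Cxcl13 stood at 15.7, 23.8, 1566 and 2.94 CPM. The class II list stood at 4067, 4717 and 4786 CPM in the 22-month section 1 and at 2381, 1434 and 2345 CPM in the 14-month section 2, with no shared order. In the other sections the B cell list was highest in the top band, at 31.0, 58.9 and 251 CPM in the 22-month section 1 and 0, 37.2 and 370.2 CPM in the 14-month section 2, with 24, 9 and 5 and with 4, 3 and 2 spots. Cxcl13 in the 22-month section 1 stood at 20.7, 24.5 and 60.3 CPM, highest in the top band. Within the 188 members Spearman's rho of the Igkc share was 0.77 with Jchain, 0.40 with Mzb1, 0.25 with the B cell list and 0.06 with Ltb. The B cell list in turn had a rho of 0.65 with Ltb, 0.60 with Cd74, 0.55 with the T and NK list, 0.53 with Cxcl13 and -0.47 with Acta2. In the 38 members of the 22-month section 1 the Igkc share had a rho of 0.75 with Jchain, 0.68 with Mzb1, 0.41 with the B cell list, 0.52 with Prg2 and -0.55 with Acta2, and the B cell list one of 0.03 with Ltb. All spots of a section share a library, and sparse counts limit these values.

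**Figure D3:**
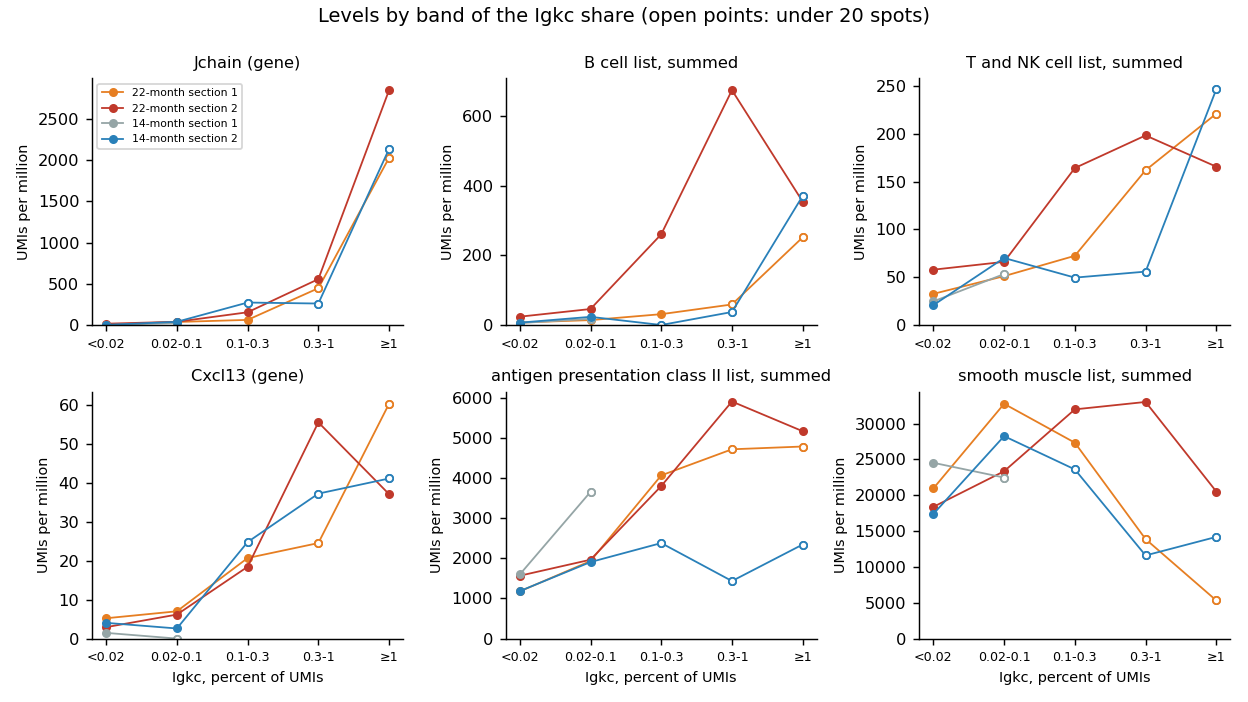
Summed CPM of 2 genes and 4 lists (y) by band of the Igkc share (x, percent of UMIs) in each section; open points rest on under 20 spots. Jchain is highest in the top band of the 3 sections that have one, whereas the B cell and class II lists of the 22-month section 2 are highest at 0.3 to 1%. Most B cell list UMIs of that band come from a few spots with more lambda than kappa.

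Over all spots of 2000 or more UMIs, members or not, the gene most like Igkc by the median Spearman's rho of the 4 sections was Ighm (0.32). It was the only other immunoglobulin gene with 200 or more UMIs in every section. Its rho was 0.76 in the 22-month section 2, 0.43 in the 22-month section 1, 0.22 in the 14-month section 2 and 0.06 in the 14-month section 1. Among 9420 genes compared, the leading others were H2-Ab1 (0.15), Krt5, Ly6d, Fau, Cxcl14 and H2-Eb1, followed by Rps15, Fam25c, Psca, Krt8, Rpl18, Wfdc2, Atox1, H2-Aa and Cldn4 down to 0.12. In the 22-month section 2, which holds most members, Ly6d, Rps15, Fam25c, Psca, Krt8, Wfdc2, Atox1 and Cldn4 had a negative rho, from -0.01 to -0.12. The others named were positive there. Psca was also among the urothelial genes called lower in rich spots. At 22 months the rho of H2-Ab1 was 0.26 and 0.30, but at 14 months it was 0.03 and -0.08. Correlations this weak in sparse counts name no partner of Igkc.

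With age, the contrast that the sections allow rests on 2 rich sums of 22 months against the single rich sum of 9 spots at 14 months, which is assumed to vary like the others. Of 9772 genes tested 1 was called (0.0102%), 862 had an unadjusted p under 0.05, DESeq2 called 20, and 18 of 8411 (0.214%) were called with limited depth. The count was 85 with no filter on low counts and 127 without the spots rich in lambda. The called gene was Egr1, an immediate-early transcription factor, at 11.6 and 13.1 CPM in rich spots of 22 months and 203 CPM in those of 14 months (log2 difference -3.79, SE 0.40, adjusted p = 0.0462). Low spots had the same order, at 10.5 and 6.93 CPM at 22 months against 359 and 90.1 CPM at 14 months. It was also called with limited depth (-3.32, adjusted p = 0.00107). DESeq2 gave -3.85 with no adjusted p. It was not called with RLE size factors, among spots of 0.2% or more, with 3 or more Igkc UMIs or with the rule by Igkc UMI number. Whether the rich-against-low change itself differed with age was tested as an interaction, whose median over all genes was 0.42 on the log2 scale, or 0.28 with library size alone. Of 14829 genes 13 were called (0.0877%), 7 with a larger rise at 22 months (0.0472%) and 6 with a larger one at 14 months (0.0405%). The split was 2 against 6 with RLE size factors and 1 against 6 with library size alone. Among the 13 were 2 immunoglobulin genes. With limited depth 6 of 13306 were called (0.0451%), none of them among the other 11 of the 13, and DESeq2 called 0, with 866 and 172 genes at an unadjusted p under 0.05 in the 2 tools. C1qa, C1qc, Ccl8 and Cd74 had the larger rise at 22 months and 4 haemoglobin genes the larger rise at 14 months. Ccl8, a chemokine of monocytes, stood at 129 and 243 CPM in rich and 40.4 and 67.1 CPM in low spots of 22 months, against 76.1 and 86.0 CPM in the 14-month section 2 (difference 2.11, SE 0.42, adjusted p = 0.00126). Age and section cannot be told apart in the members, since 1 section holds all 9 of 14 months.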

How the data were processed

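The authors deposited raw UMI counts per gene and spot for each section. The submitters' processing notes list bcl2fastq, Cell Ranger, Space Ranger, Subread and featureCounts and the build mm10, without saying which step used which. The tables hold 31053 genes, 392 of them immunoglobulin genes, and 21976101 to 32021223 UMIs per section. Counts were summed over rich and low spots per section, Igkc was taken out, and 7 sums were fitted, not 8, as the 14-month section 1 has no members. edgeR 4.0.16 (robust quasi-likelihood, TMM, filterByExpr, Benjamini-Hochberg, threshold 0.05) was the main test and DESeq2 1.42.0 an alternative. Other immunoglobulin genes stayed in the fit and are given without p. Doublets do not apply to spots. On simulated counts for rich against low spots (13638 genes) the test recovered 46 of 50 genes raised 2-fold, 36 of 50 lowered to 0.5-fold, and called 9 of 13438 unchanged genes. The simulation gave every gene the same dispersion (0.0103) and unchanged genes the same mean in the rich and low sums of a section. It holds no genes of larger spread and no differences tied to depth, so its few false calls do not vouch for the calls on the real counts.

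Named genes were list members, the 10 largest rises and 10 largest falls of at least 10 CPM with 1 direction in every section, 5 each way for age, and the 15 genes most like Igkc. The members and lists were chosen with earlier results of these data known. Alternatives changed the scaling, tool, filter, spot rule, section block and sections used. The comparison without spots of more lambda than kappa UMIs was chosen after seeing the data. Results for some genes of the lists are not reported here.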

Additional observations from a re-analysis of the deposited data

Results flagged for a closer look

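The 22-month section 2 stood apart from the other 3 sections in its share of rich spots, 18.1%, and in the level of the B cell list in its low spots, 23.8 CPM. In the 14-month section 2 the low spots stood apart with 521 CPM of the interferon response list and 6772 CPM of the fibroblast list. These 4 came from 26 values tested over 4 sections each by the gap to the nearest section as a share of the range, a test that chance passes in about 1 of 20 values.

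In edgeR's interaction test the change from low to rich spots passed the threshold between the 22-month sections and the 14-month section 2 for 11 genes other than immunoglobulin genes, while DESeq2 called 0 of them and none was called in spots of 5000 to 30000 UMIs (adjusted p = 0.0952 to 0.655). Age and section cannot be told apart here. The change was larger at 22 months for Gpaa1 (log2 difference 12.62, with 0 UMIs in the 14-month rich spots, so the fitted value is no bound), Htra3 (2.16), Ccl8 (2.11), Lmod1 (1.47), C1qc (1.34), Cd74 (1.24) and C1qa (1.11). It was larger at 14 months for the haemoglobin genes Hba-a2 (-1.39), Hbb-bt (-1.56), Hbb-bs (-1.57) and Hba-a1 (-1.80). All 11 rest on the 9 rich spots of the 14-month section 2.

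Outside the members, 35 spots of the 22-month section 2 held 10 or more lambda chain UMIs, up to 87, while no such spot was found in the other 3 sections. The rule by Igkc does not see these spots.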

How the results depend on the processing

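The number of genes called between rich and low spots moved from 2195 to 561 with DESeq2, 122 in spots of 5000 to 30000 UMIs, 398 with spots of 10 or more against at most 1 Igkc UMI, and 457 to 2365 when a section was left out (457 without the 22-month section 2, 1167 without the 22-month section 1). The section is a shared source of the rich and low sums, and without this pairing, with no replicate block, 672 were called. The causes were not tested. Of 78 called genes named in the text, 28 of 68 tested kept their call at limited depth, 62 with DESeq2, 50 without the block and 46 of 74 without the 22-month section 2. With the rule by Igkc UMI number 18 of 67 kept it and 18 turned, and over all genes that rule gave 58 higher and 340 lower calls against 1263 and 932. That rule compares classes of unlike depth. The medians were 22400 UMIs in rich and 4468 in low spots of the 22-month section 2, and 17569 against 13747 in the 22-month section 1. In the 14-month section 2 they were 12910 against 14045. Genes that turn under this rule are therefore not compared at like depth.

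In spots of 5000 to 30000 UMIs (limited depth) the log2 fold change turned for Sdc1 (0.44), Ccl21a (-1.05), Ifi27l2a (-0.094), Dcn (-0.086), Myh11 (-0.70), Acta2 (-0.69), Synm (-0.42), Rgs5 (0.13), Upk1b (0.084), Upk2 (0.20) and Lyve1 (-0.40). With the rule by Igkc UMI number it turned for Sdc1 (0.15), Ccl21a (-2.04), Gbp2 (-0.38), C1qa (-0.10), Csf1r (-0.23), Cd209a (-0.37), Pi16 (-0.036), Dcn (-0.049), Myh11 (-0.99), Acta2 (-0.91), Synm (-1.08), Rgs5 (0.11), Upk2 (0.094), Krt20 (0.34), Lyve1 (-1.77), Hba-a2 (-0.24), Hbb-bt (-0.49), Pigr (0.76), Slc16a12 (0.072), Atp10b (0.41), Adtrp (0.92), Sptlc3 (0.45), Cspg5 (0.10) and Sqle (0.17). At 0.2% or more it turned for Ccl21a (-0.62), S100a9 (-0.36), Myh11 (-0.19) and Acta2 (-0.082), with DESeq2 for Ccl21a (-1.30), and with no replicate block for Ccl21a (-0.077) and Lyve1 (-0.19). Leaving out a section gave ranges of -7.22 to 3.18 for Top2a, -2.57 to 0.54 for Ccl21a, -0.17 to 0.36 for Myh11, -0.13 to 0.31 for Acta2, -0.50 to 0.68 for Lyve1 and -0.017 to 0.24 for Krt5.

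Between ages in rich spots the count of 1 became 0 with RLE size factors, 17 with library size alone, 20 with DESeq2, 85 with no filter, 0 at 0.2% or more, 0 with 3 or more Igkc UMIs, 18 at limited depth and 127 without the spots rich in lambda. The age difference of the change went from 13 to 8, 7, 0 and 8 genes under the first 4 of these, 2 at 0.2% or more, 6 at limited depth and 50 by UMI number, where Lmod1 (-0.028), C1qc (-0.0014), Cd74 (-0.34) and C1qa (-0.29) turned. The rule by UMI number is the only one that gives the 14-month section 1 rich spots, 3 of them, so its fit holds a further rich sum. No paired analysis was possible because the labels give the sections of the 2 ages no shared animal, batch or replicate number. Leaving out either 22-month section or the 14-month section 2 could not be fitted for age. The difference in the share of rich spots ranged from 2.48 to 17.7 points when a section was left out.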
